A study of Mus musculus with 5 samples.

Results

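PP cells that carry little glucagon mRNA are described here across single-cell RNA-seq libraries of mouse pancreatic islets. A cell was counted as a PP cell when Ppy made up at least 5% of its UMIs (unique molecular identifiers, 1 per captured mRNA molecule), with Gcg under 5%, Ins1 and Ins2 together under 10% and Sst under 5%. By these limits 360 of 22758 kept cells were PP cells, 5 in mouse HC 1, 65 in mouse HC 2, 4 in mouse chow 1, 126 in mouse chow 2 and 160 in mouse chow 3. The islets came from 5 NOD.SCID mice (strain NOD.Cg-Prkdcscid/J), so every mouse carried the scid allele of Prkdc, which leaves it without T and B lymphocytes. Mice HC 1 and HC 2, aged 7 and 9 weeks, ate a diet with 20% HC (hydrolyzed casein), and mice chow 1, chow 2 and chow 3, aged 8, 10 and 10 weeks, ate standard chow. The title of the HC 2 sample names chow, while its diet label and the series' design name HC, and HC was used. Islets were picked by hand, dissociated with trypsin and sequenced 1 mouse at a time by a droplet method that reads the 3′ end of each mRNA.

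PP cells (gamma cells) are the least studied of the common endocrine cells of the islet and secrete pancreatic polypeptide, the product of Ppy, after meals and under vagal control. Pancreatic polypeptide belongs to the neuropeptide Y family together with peptide YY, the product of the neighbouring gene Pyy, and acts mainly on the receptor encoded by Npy4r to slow gastric emptying and pancreatic secretion. In the mouse, PP cells are enriched in the part of the pancreas that derives from the ventral bud, and some islet cells carry Ppy together with another hormone.

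Cells with Ppy and Gcg both at or above 5% and the other hormones under their limits are called sharing cells (219 cells). Cells with Gcg alone past its limit are called alpha cells (4963 cells), and cells with Sst alone past its limit are called delta cells (2314 cells). The libraries held 28722244 to 39624978 UMIs and 3656 to 5122 kept cells, with a median of 5147 to 6958.5 UMIs per kept cell. The sample names carry the prefix FUN in mice HC 1 and chow 1 and the prefix SKY in mice HC 2, chow 2 and chow 3, and no label explains that prefix. The FUN libraries gave 9 PP cells and the SKY libraries 351, so values of mice HC 1 and chow 1 rest on few cells. Summed over the PP cells of a mouse, 1 UMI stood for 72.8 CPM in HC 1, 6.37 CPM in HC 2, 112 CPM in chow 1, 3.08 CPM in chow 2 and 2.93 CPM in chow 3. CPM here means UMIs per 1000000 UMIs summed over the cells of a class in 1 mouse, with Ppy, Gcg, Ins1, Ins2, Sst and Pyy left out of the total. Between 3 and 10 kept barcodes were shared by each pair of libraries, and no PP cell barcode was a PP cell in both libraries of a pair.

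Ppy (ENSMUSG00000017316, chr11:102099930-102101319) and Pyy (ENSMUSG00000017311, chr11:102106676-102107832) lie on the minus strand of chromosome 11 in GRCm38, 5356 bases apart. Their upstream sequences are shown because these neighbours are the most abundant transcripts of PP cells. The 250 bases before each start (RefSeq, GRCm38.p6, minus strand, 5′ to 3′) are chr11:102101320-102101569 for Ppy and chr11:102107833-102108082 for Pyy, with capitals marking the letters TATAA of a TATA box, a motif chosen after the sequences were seen.
Ppy: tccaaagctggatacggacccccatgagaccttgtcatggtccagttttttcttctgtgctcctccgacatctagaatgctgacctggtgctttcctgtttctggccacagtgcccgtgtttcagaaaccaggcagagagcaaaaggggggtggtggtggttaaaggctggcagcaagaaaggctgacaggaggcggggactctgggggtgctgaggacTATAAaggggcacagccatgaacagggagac
Pyy: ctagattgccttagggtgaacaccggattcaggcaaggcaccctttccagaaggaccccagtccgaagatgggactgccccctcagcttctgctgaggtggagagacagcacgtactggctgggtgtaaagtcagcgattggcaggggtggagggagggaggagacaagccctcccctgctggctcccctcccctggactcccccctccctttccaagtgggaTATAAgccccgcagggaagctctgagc
Searched on both strands, the Ppy window held 1 run of TATAA, starting at position -31 from the gene's start, and the Pyy window held 1, starting at position -27. Those letters are found in 22.8% of 32851 mouse windows of the same length. An E-box (CATCTG, in 14.4% of windows), a homeodomain core (TAATTA, in 4.84%) and a forkhead core (TGTTTAC, in 3.17%) were found in neither window. A match is a run of letters and was not tested as a binding site.

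The values that chose the cells are given here as a description. The median PP cell had 4987 UMIs (range 1509 to 48386), of which 42.4% were Ppy (range 5.03 to 63.5%) and 0.0379% were Gcg. Ppy was at least 20% of the UMIs in 334 of the 360 cells. No Gcg UMI was seen in 69 cells, Gcg was under 0.5% in 330 cells, and it was at or above 1% in 18 cells. Insulin transcripts had a median of 0.400% and were at or above 1% in 36 cells, while Sst had a median of 0 and was at or above 1% in 28 cells. Near the Ppy and Gcg limits lay few cells: 1 cell had Ppy of 4 to 5% and 3 PP cells had 5 to 6%, while 1 PP cell had Gcg of 4 to 5% and 6 sharing cells had 5 to 6%. The PP cell nearest the Gcg limit had 4.31% Gcg, and the 6 sharing cells just beyond it had a median of 5.56% Gcg with 29.9% Ppy. The Sst limit had 5 PP cells at 4 to 5% Sst just inside it and 10 excluded cells at 5 to 6% just outside.

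Pyy, which the limits did not read, was the most abundant other transcript of PP cells. It had a median of 14.6% of all UMIs of a PP cell (range 2.13 to 48.2%), and Ppy and Pyy together made up at least 50% of the UMIs in 285 of 360 cells (79.2%). Pyy exceeded Ppy in 33 PP cells. The median Pyy percentage was 24.0% among PP cells with Ppy of 10 to 20% and 6.30% among those with 60 to 70%, but percentages of the same total trade off by arithmetic. Taken instead as a share of the UMIs other than Ppy, Pyy had a Spearman correlation with the Ppy percentage of 0.088 over 65 cells in HC 2, 0.020 over 126 cells in chow 2 and -0.292 over 160 cells in chow 3. These are descriptions over cells of 1 library each, and they did not share a sign.

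**Figure D1:**
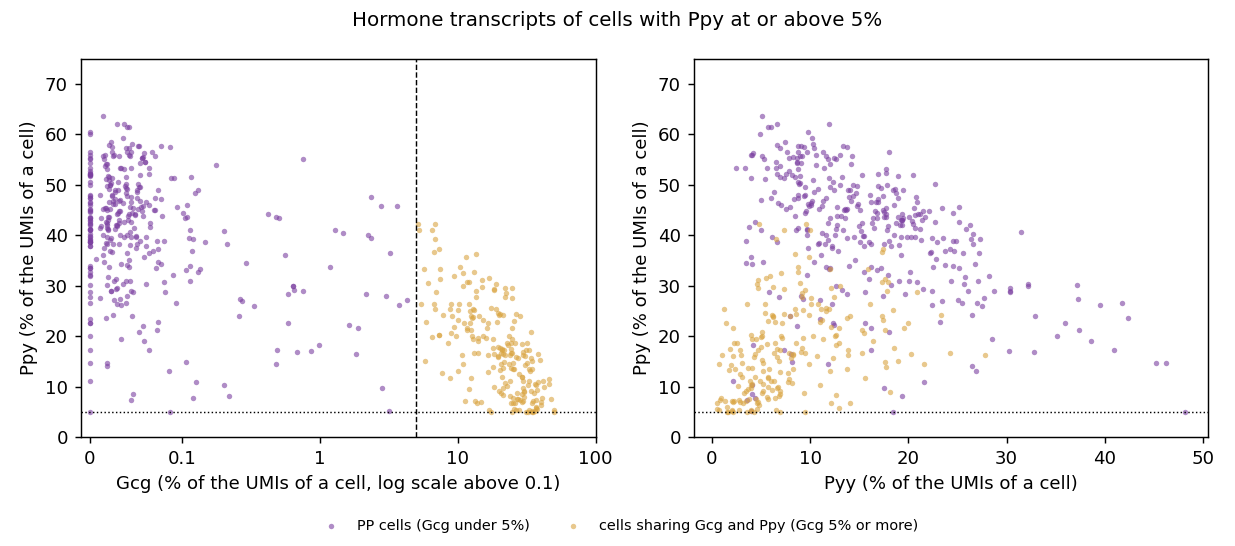
Each point is 1 of the 360 PP cells or 219 sharing cells, with Ppy (% of the UMIs of a cell) on the vertical axes against Gcg (% of UMIs, log scale above 0.1) on the left and Pyy (% of UMIs) on the right. The dotted and dashed lines are the 5% limits, and most PP cells lie far to the left of the Gcg limit with Ppy around the median of 42.4%.

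PP cells made up 0.104% of kept cells in HC 1 and 1.47% in HC 2, against 0.109% in chow 1, 2.46% in chow 2 and 3.37% in chow 3. Exact 95% binomial intervals, which cover counting error only, were 0.0337 to 0.242% in HC 1 and 1.14 to 1.87% in HC 2, against 0.0298 to 0.280% in chow 1, 2.05 to 2.92% in chow 2 and 2.88 to 3.92% in chow 3. Both FUN libraries lay below all SKY libraries, whatever the diet. PP cells averaged 0.788 ± 0.968% of kept cells on HC (SD over 2 mice) and 1.98 ± 1.68% on chow (SD over 3 mice), a difference of -1.19 percentage points that the exact two-sided permutation test did not separate (p = 0.4, where 0.1 is the smallest the design allows). Within the FUN libraries HC minus chow was -0.00570 points, and within the SKY libraries it was -1.44 points, with 1 HC mouse in each.

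Among PP and sharing cells together, PP cells were 20% of 25 cells in HC 1 and 61.3% of 106 in HC 2, against 40% of 10 in chow 1, 57.5% of 219 in chow 2 and 73.1% of 219 in chow 3. HC averaged 40.7 ± 29.2% (SD over 2 mice) and chow 56.9 ± 16.5% (SD over 3 mice), with overlapping values (exact permutation p = 0.5). Of 724 cells with Ppy at or above 5%, 145 (20.0%) had insulin or Sst past its limit as well and were left out of both classes. Doublets were not called.

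**Figure D2:**
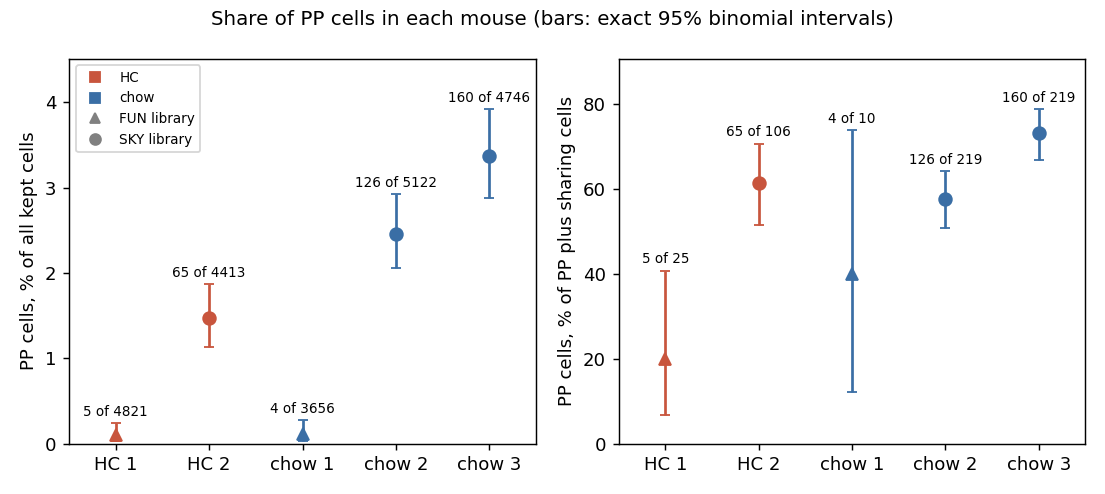
PP cells as a percentage of all kept cells (left) and of PP plus sharing cells (right) in each of the 5 mice, HC mice first, with exact 95% binomial intervals as bars and cell counts above them. On the left the FUN libraries HC 1 and chow 1 lie near 0.1% and the SKY libraries between 1.47 and 3.37%.

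Levels of 4 markers outside the limits are described next: Pyy, Tspan8, Folr1 and Calb1. They were listed with earlier results of these data known, so they are not an independent check of the label. Pyy made up 19.3% and 17.2% of the UMIs outside the 5 limit genes in PP cells of HC 1 and HC 2, and 24.9%, 29.8% and 30.05% in PP cells of chow 1, chow 2 and chow 3. In sharing cells the mean was 11.9 ± 4.89%, in alpha cells 1.19 ± 0.397% and in delta cells 2.89 ± 0.924%, against 24.3 ± 5.87% in PP cells (SD, n = 5 mice each). PP cells had more Pyy than sharing, alpha or delta cells in every mouse. The log2 ratio of PP cells was 4.32 ± 0.26 over alpha cells, 3.10 ± 0.25 over delta cells and 1.02 ± 0.23 over sharing cells (SE). The last had an edgeR quasi-likelihood adjusted p of 0.00133, which became 0.107 without chow 3 and 0.197 with no replicate block.

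Tspan8, which encodes a tetraspanin membrane protein (chr10:115816832-115849893, plus strand), had 1820 and 1477 CPM in PP cells of HC 1 and HC 2, and 1906, 1232 and 1362 CPM in PP cells of chow 1, chow 2 and chow 3. Sharing cells had 508, 603, 225, 582 and 555 CPM in the same order of mice, and alpha cells 25.4 to 46.1 CPM. Delta cells had 224 to 301 CPM, and the PP values did not overlap those of any other class. Tspan8 was higher in PP cells by a log2 ratio of 5.06 ± 0.12 over alpha cells, 2.35 ± 0.11 over delta cells and 1.22 ± 0.12 over sharing cells (SE; edgeR adjusted p = 6.84e-20 for the last), each in 5 of 5 mice.

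Folr1, the gene of a folate receptor held at the cell surface (chr7:101858331-101870788, minus strand), had 1310 and 1044 CPM in PP cells of HC 1 and HC 2, and 2355, 1429 and 1268 CPM in PP cells of chow 1, chow 2 and chow 3. Its mean was 1481 ± 508 CPM in PP cells, 536 ± 183 CPM in sharing cells, 68.0 ± 9.77 CPM in alpha cells and 271 ± 23.5 CPM in delta cells (SD, n = 5). Folr1 was higher in PP cells by log2 ratios of 3.99 ± 0.12 over alpha, 2.09 ± 0.11 over delta and 0.99 ± 0.12 over sharing cells (SE), with no overlap between PP and sharing cells. Calb1, which encodes the calcium buffer calbindin (chr4:15881264-15908064, plus strand), had 874 and 427 CPM in PP cells of HC 1 and HC 2 and 336, 400 and 578 CPM in PP cells of chow 1, chow 2 and chow 3. Calb1 averaged 523 ± 215 CPM in PP cells, against 350 ± 68.3 CPM in sharing cells, 115 ± 8.42 CPM in alpha cells and 124 ± 27.3 CPM in delta cells. It was higher over alpha cells (log2 1.88 ± 0.13) and delta cells (1.90 ± 0.13), while its ratio over sharing cells (0.40 ± 0.15) missed the threshold (edgeR adjusted p = 0.18) and the 2 classes overlapped. The Calb1 ratio over sharing cells passed with stricter class limits (0.53, adjusted p = 0.0272) and with library sizes without Pyy (0.47, adjusted p = 0.0165).

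At a common depth of 1000 UMIs per cell, Tspan8 was seen in 42.5% of PP cells, 19.6% of sharing cells, 1.31% of alpha cells and 16.1% of delta cells. Endothelial-like cells, named by at least 4 of 8 endothelial markers and shown as a non-endocrine type, had 8.04%, above the alpha cells. Folr1 was seen in 37.2% of PP cells, 29.2% of sharing, 3.79% of alpha, 17.5% of delta and 0% of endothelial-like cells. Calb1 was seen in 20.3% of PP cells (95% exact interval 16.2 to 24.8%), 16.9% of sharing cells (12.2 to 22.5%), 6.29% of alpha cells and 8.43% of delta cells, so that its PP and sharing intervals overlapped. Pyy was seen in 100% of PP cells, 100% of sharing, 77.0% of alpha, 99.1% of delta and 7.55% of endothelial-like cells, so its presence alone did not set PP cells apart. Gcg, a limit gene, was seen in 40% of PP cells, 43.6% of delta cells and 45.3% of endothelial-like cells. The source of the Gcg UMIs in PP cells was not tested. Without thinning, the PP cell shares were 87.8% for Tspan8, 81.9% for Folr1 and 58.1% for Calb1, at a median depth of 4987 UMIs against 3886 in alpha cells and 1312 in endothelial-like cells. The summed levels of the 4 markers were higher in PP cells than in alpha and delta cells, and those of Pyy, Tspan8 and Folr1 also than in sharing cells.

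**Figure D3:**
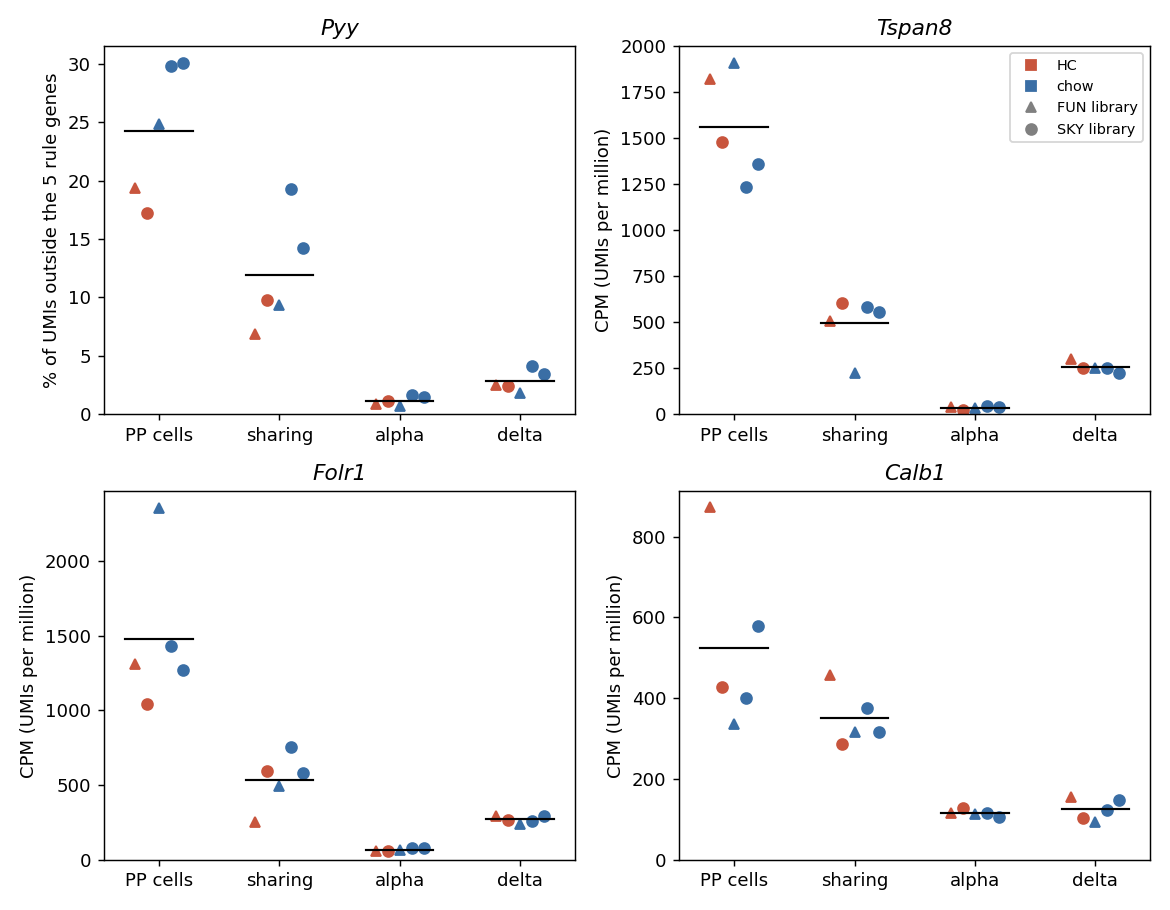
Levels of Pyy (% of UMIs outside the 5 limit genes), Tspan8, Folr1 and Calb1 (CPM) summed over the PP, sharing, alpha and delta cells of each mouse, with colour for diet, shape for library prefix and the line at the mean of 5 mice. PP cells hold the highest mean in each panel, and the PP and sharing points overlap in Calb1.

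PP cells were next compared with alpha cells over 8400 genes in one model with the mouse as a block. The question was which genes other than the hormones differ between cells divided by their hormone content. Of the genes tested, 16.9% differed at an adjusted p under 0.05, with 622 higher (7.4%) and 794 lower (9.45%) in PP cells and a median log2 ratio of -0.06. A different scaling moved this split to 1073 higher and 611 lower, when library sizes left out Pyy and no scaling factor was used.

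Among the genes with the largest positive ratios, Fxyd3, a regulator of the sodium pump, had 364 and 191 CPM in PP cells of HC 1 and HC 2 and 449, 268 and 194 CPM in PP cells of chow 1, chow 2 and chow 3, against 4.42 to 11.5 CPM in alpha cells. Every PP value of Fxyd3 lay above every alpha value, and its log2 ratio was 4.56 ± 0.21 (SE). Cd9, another tetraspanin, had 437 and 401 CPM in PP cells of HC 1 and HC 2 and 449, 484 and 690 CPM in PP cells of chow 1, chow 2 and chow 3, against a mean of 62.9 ± 12.3 CPM in alpha cells (log2 2.80 ± 0.13). One chow 3 cell gave 24.1% of the Cd9 UMIs of PP cells. Tspan15, a tetraspanin partner of the protease ADAM10, averaged 234 ± 138 CPM in PP cells and 41.4 ± 2.55 CPM in alpha cells (log2 2.17 ± 0.17).

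Kdelr3, a receptor that returns proteins to the endoplasmic reticulum, averaged 118 ± 15.8 CPM in PP cells and 15.2 ± 3.08 CPM in alpha cells (log2 2.68 ± 0.23). Snhg18, a long non-coding RNA, averaged 193 ± 46.3 CPM in PP cells and 23.1 ± 6.45 CPM in alpha cells (log2 2.75 ± 0.19). Sult1d1, a sulfotransferase, averaged 159 ± 63.1 CPM in PP cells and 31.3 ± 7.54 CPM in alpha cells (log2 2.26 ± 0.19). All 3 were higher in PP cells of 5 of 5 mice. Stxbp6, a syntaxin-binding protein, had a log2 ratio of 2.21 ± 0.33 with 76.0 ± 49.7 CPM in PP cells and 8.09 ± 0.734 CPM in alpha cells. Smim1, a small membrane protein, had a ratio of 1.95 ± 0.25 with 84.6 ± 18.1 CPM in PP cells and 17.4 ± 3.33 CPM in alpha cells. Gpx2, a glutathione peroxidase, had a ratio of 1.94 ± 0.22 with 180 ± 151 CPM in PP cells, pulled up by 449 CPM from 4 UMIs in chow 1, and 26.2 ± 4.38 CPM in alpha cells. The largest edgeR adjusted p among the named higher and lower genes was 2.16e-09, for Stxbp6.

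Among the genes with the largest negative ratios, Irx1, a homeobox factor of alpha cells, had 0 CPM in PP cells of HC 1 and HC 2 and 0, 6.16 and 11.7 CPM in PP cells of chow 1, chow 2 and chow 3, from 6 UMIs in all, of which 1 cell gave 66.7%. Alpha cells had 247 and 198 CPM in HC 1 and HC 2 and 262, 171 and 216 CPM in chow 1, chow 2 and chow 3. Every PP value lay below every alpha value, with a log2 ratio of -4.91 ± 0.33 (SE), but the zeros of HC 1 and chow 1 allow up to 218 and 336 CPM (3 UMIs), so the separation rests on HC 2, chow 2 and chow 3. Irx2 averaged 11.02 ± 11.6 CPM in PP cells and 185 ± 26.6 CPM in alpha cells (log2 -3.27 ± 0.27).

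Slc38a5, a glutamine transporter that alpha cells raise when amino acids are plentiful, averaged 33.6 CPM in PP cells and 372 ± 49.6 CPM in alpha cells (log2 -4.47 ± 0.26). Slc30a8, the zinc transporter of secretory granules, averaged 111 ± 62.5 CPM in PP cells and 806 ± 66.2 CPM in alpha cells (log2 -3.47 ± 0.18). Edn3, an endothelin, averaged 8.03 CPM in PP cells and 132 ± 17.3 CPM in alpha cells (log2 -3.44 ± 0.31). Slc38a5 and Slc30a8 had PP values below the alpha values in each mouse. Edn3 had 11 UMIs in PP cells and 0 in HC 1 and chow 1, where 3 UMIs would allow up to 218 and 336 CPM, so its order is shown in HC 2, chow 2 and chow 3 only. Higd1a, a mitochondrial protein of the hypoxia response, averaged 38.4 CPM in PP cells and 362 ± 65.8 CPM in alpha cells (log2 -4.05 ± 0.23). Dapl1 averaged 4.75 CPM in PP cells, from 8 UMIs, and 262 ± 48.2 CPM in alpha cells (log2 -5.03 ± 0.30). The fitted ratios of Pdk4, a kinase that inhibits pyruvate dehydrogenase, and of Vgf, a granule protein, were -3.76 ± 0.34 and -3.36 ± 0.41. Pdk4 had 8 UMIs and Vgf 6 in PP cells. Counts this low say little about HC 1 and chow 1, where 3 UMIs would be 218 and 336 CPM.

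Some genes were all but missing from PP cells. Edil3, an extracellular matrix protein, had 0 UMIs in the PP cells and 692 in alpha cells, at least 16.1-fold lower with the floor set at 3 counts over the group. Dpp10, a subunit of potassium channels, had 3 UMIs in PP cells and 1002 in alpha cells, a ratio of 0.0428 with a 95% counting interval of 0.00882 to 0.126. These counts rest mostly on the SKY libraries, which held 351 of the 360 PP cells.

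PP cells were compared with sharing cells to ask what separates Ppy cells with little Gcg from Ppy cells with much. Of the 8400 genes 2.1% differed, with 52 higher (0.619%) and 124 lower (1.48%) in PP cells and a median log2 ratio of -0.01. The sharing sums held 22220 to 340079 UMIs outside the 5 limit genes and Pyy. Alpha sums held 1712530 to 3222013 and delta sums 806106 to 1045961, so the shares of genes called are not directly comparable. With library sizes that left out Pyy and no scaling factor, the split was 141 higher and 188 lower. Irx1 averaged 3.58 ± 5.28 CPM in PP cells, against 153 and 131 CPM in sharing cells of HC 1 and HC 2 and 90.0, 76.5 and 96.7 CPM in sharing cells of chow 1, chow 2 and chow 3. Sharing cells thus lay above the PP values and below the alpha values of 171 to 262 CPM in HC 2, chow 2 and chow 3. In HC 1 and chow 1 they lay below the alpha values, but 0 UMIs in PP cells there allow levels above those of sharing cells. The log2 ratio of PP cells over sharing cells was -3.85 ± 0.46 (SE). Higd1a averaged 38.4 CPM in PP cells and 270 ± 109 CPM in sharing cells, with a ratio of -3.31 ± 0.29. The other large negative ratios were Dapl1 (-3.66 ± 0.43), Slc38a5 (-3.08 ± 0.36) and Edn3 (-2.98 ± 0.40). These 5 genes were also lower in PP cells than in alpha cells. The median sharing cell had 6185 UMIs, against 4987 in PP cells and 3886 in alpha cells. Doublets were not called, and their part in the levels of sharing cells was not tested.

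Higher in PP cells than in sharing cells were Tspan8 and Folr1, above, and Snhg18 (log2 1.59 ± 0.25, edgeR adjusted p = 6.73e-08). Snhg18 had 146 and 255 CPM in PP cells of HC 1 and HC 2 and 224, 154 and 188 CPM in PP cells of chow 1, chow 2 and chow 3, against 0, 53.7, 45.0, 79.4 and 51.6 CPM in sharing cells. Every PP value was above every sharing value. Ugt2b34, a UDP-glucuronosyltransferase, averaged 155 ± 38.5 CPM in PP cells and 62.0 ± 23.0 CPM in sharing cells (log2 1.25 ± 0.25, adjusted p = 1.16e-04). Mpp2, a membrane scaffold protein, averaged 82.4 ± 18.3 CPM in PP cells and 17.8 ± 12.5 CPM in sharing cells (log2 1.68 ± 0.37, adjusted p = 8.67e-04, and 0.0544 without chow 3). Gpr180, a membrane protein, averaged 116 ± 16.9 CPM in PP cells and 49.7 ± 20.5 CPM in sharing cells (log2 1.34 ± 0.30). Its adjusted p of 0.00133 became 0.150 without chow 2 and 0.0662 without chow 3. Tbc1d8b, a gene of a Rab GTPase-activating family, had 23 UMIs in PP cells and 3 in sharing cells, a ratio of 6.75 with a counting interval of 2.04 to 35.1. Its adjusted p of 0.0217 became 0.241 without HC 2 and 0.195 without chow 3.

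**Figure D4:**
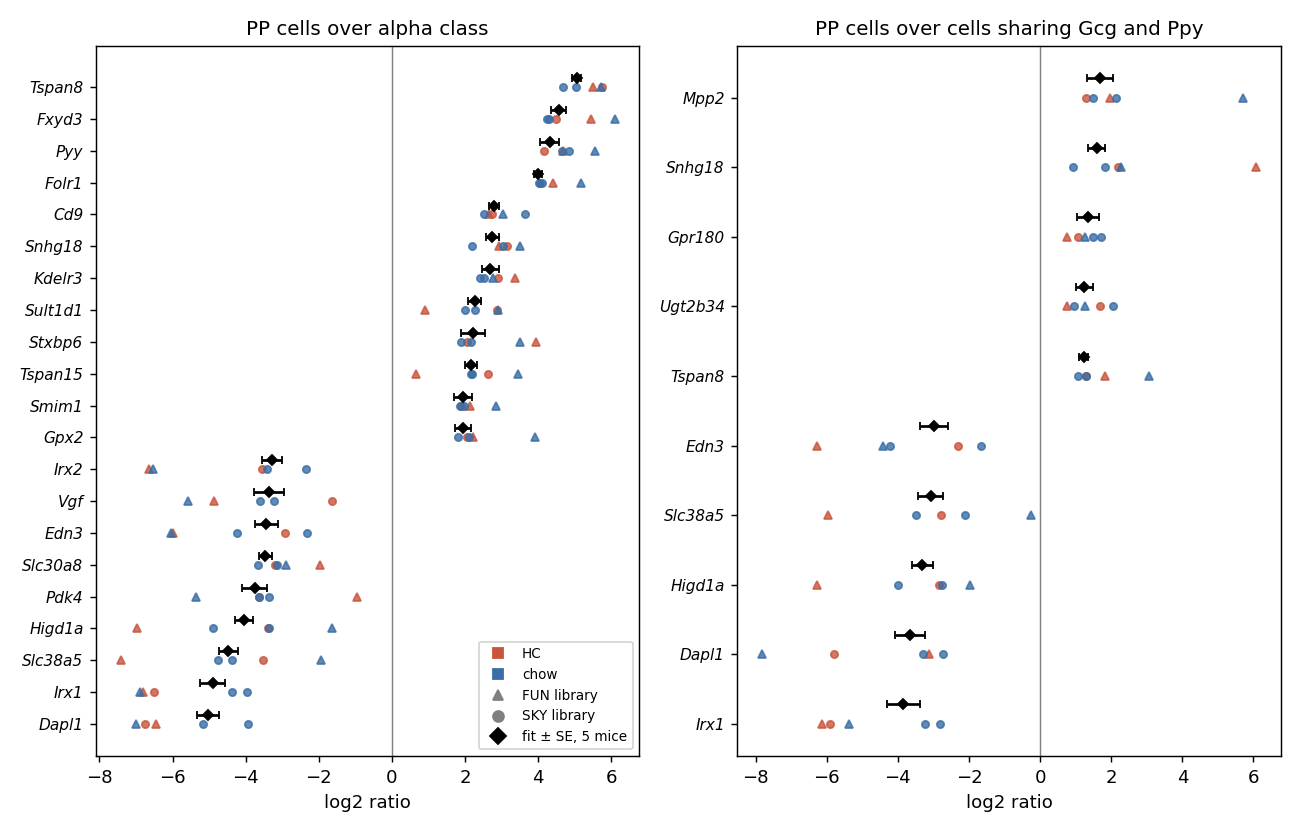
Log2 ratios of PP cells over alpha cells (left) and over sharing cells (right) for named genes, from the fit over 5 mice (diamonds, bars are SE) and within each mouse (points, with edgeR's default prior count, so that a mouse with 0 UMIs has a finite value). Colour marks diet and shape library prefix. The FUN points (HC 1 and chow 1) rest on 5 and 4 PP cells and often lie far from the fit.

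Against delta cells 18% of the 8400 genes differed, with 630 higher (7.5%) and 885 lower (10.5%) in PP cells and a median log2 ratio of -0.06. Ttr, the thyroid hormone carrier transthyretin, lay between the types. It averaged 5096 ± 1143 CPM in PP cells, 16243 ± 4794 CPM in sharing cells, 30451 ± 4923 CPM in alpha cells and 153 ± 83.9 CPM in delta cells. Its log2 ratio was 4.85 ± 0.21 over delta cells and -2.97 ± 0.18 over alpha cells.

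Lpl, lipoprotein lipase, averaged 324 ± 92.9 CPM in PP cells and 13.0 ± 4.97 CPM in delta cells (log2 4.65 ± 0.22). Ugt2b34 had a ratio of 5.90 ± 0.31 over delta cells, and Galnt13, a glycosyltransferase, had 56 UMIs in PP cells and 1 in delta cells (ratio 295, counting interval 50.8 to 11850). On the other side, Ppp1r17, a phosphatase inhibitor, had 0 UMIs in PP cells and 492 in delta cells, at least 31.2-fold lower by the same floor. Bmp3, a growth factor of the TGF-beta family, had 0 against 335 UMIs, at least 21.2-fold lower, and Npnt, a matrix protein, 0 against 269, at least 17.0-fold lower. Pdyn, the opioid precursor prodynorphin, had 1 UMI in PP cells and 845 in delta cells, a ratio of 0.00623 with a counting interval of 1.58e-04 to 0.0348. Dlk1, a Notch family ligand, had 1 UMI in PP cells and 497 in delta cells.

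Islet transcription factors past the threshold against alpha cells went in both directions. Of 35 listed, 31 were tested against alpha cells, and 3 were higher (Pdx1, Nkx6-1 and Id2) and 8 lower in PP cells. Of all 8400 genes, 7.4% were higher and 9.45% lower. The median log2 ratio of the 31 factors was -0.12. When library sizes left out Pyy and no scaling factor was used, that median was 0.03, with 5 factors higher and 8 lower. Pdx1, a factor of beta and delta cells, had 218 and 31.8 CPM in PP cells of HC 1 and HC 2 and 0, 67.8 and 47.0 CPM in PP cells of chow 1, chow 2 and chow 3, from 46 UMIs, against 5.97 ± 3.00 CPM in alpha cells and 165 ± 33.9 CPM in delta cells. The HC 1 and chow 1 values come from 3 and 0 UMIs. Its ratio was 3.21 ± 0.33 over alpha cells, 1.42 ± 0.42 over sharing cells (adjusted p = 0.0396) and -1.50 ± 0.22 over delta cells.

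Nkx6-1, a factor of beta cells, had 218 and 57.3 CPM in PP cells of HC 1 and HC 2 and 0, 73.9 and 82.2 CPM in PP cells of chow 1, chow 2 and chow 3, from 64 UMIs. It averaged 27.6 ± 20.9 CPM in sharing cells, 16.9 ± 5.07 CPM in alpha cells and 8.33 ± 4.74 CPM in delta cells. Its ratio was 2.20 ± 0.27 over alpha cells, 3.31 ± 0.32 over delta cells and 1.29 ± 0.35 over sharing cells (adjusted p = 0.0190). The 8 lower factors were Irx1, Irx2, Pou3f4 (-2.05 ± 0.49), Rfx6 (-2.45 ± 0.41), Neurod1 (-1.30 ± 0.18), Myt1 (-1.36 ± 0.40), Myt1l (-0.78 ± 0.22) and Peg3 (-0.39 ± 0.13). PP cells had 6 UMIs of Pou3f4, 8 of Rfx6 and 11 of Myt1 in all. Hhex, the delta cell factor, had 29.9 ± 27.9 CPM in PP cells and 523 ± 67.6 CPM in delta cells (log2 -4.20 ± 0.22). Against sharing cells 2 factors were higher (Pdx1 and Nkx6-1) and 3 lower (Neurod1, Irx1 and Irx2) of 31, beside 0.619% and 1.48% of all genes. Against delta cells 8 were higher and 10 lower, beside 7.5% and 10.5% of all genes.

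**Figure D5:**
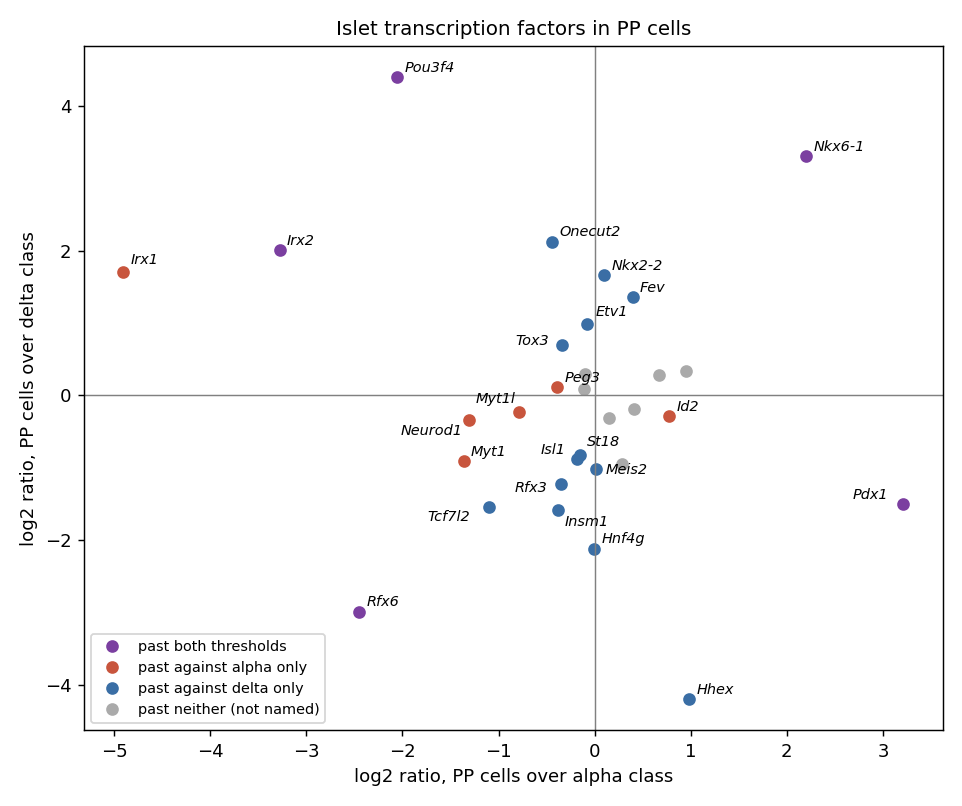
Log2 ratios of 31 islet transcription factors in PP cells over alpha cells (horizontal) and over delta cells (vertical), from fits over 5 mice, coloured by whether the adjusted p was under 0.05. Nkx6-1 lies to the upper right (2.20 and 3.31) and Irx1 (-4.91 and 1.71) and Irx2 to the left.

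Other marker lists are given mainly as counts. Beside them, 7.4% of all genes were higher and 9.45% lower in PP cells than in alpha cells. Against delta cells these shares were 7.5% and 10.5%. Of 15 alpha cell markers tested of 17, 11 were lower and 1 higher (Gc) in PP cells than in alpha cells (median log2 -2.05), and 11 were higher and 2 lower than in delta cells (median 1.71). Gc, the vitamin D binding protein, averaged 653 ± 203 CPM in PP cells and 270 ± 32.3 CPM in alpha cells (log2 0.99 ± 0.12). Of 9 delta cell markers tested of 14, all 9 were lower in PP cells than in delta cells (median -3.66). Against alpha cells, 2 of these 9 were higher (Spock3 and Efnb3) and 1 lower (Rbp4). Spock3 had 9 UMIs in PP cells, of which 1 chow 3 cell gave 55.6%. Of 10 beta cell markers tested of 14, 5 were higher than in alpha cells (Iapp, Pdx1, Nkx6-1, Nnat and Npy) and 2 lower (Slc30a8 and Ero1lb). Iapp, the islet amyloid peptide, averaged 3637 ± 1061 CPM in PP cells and 1335 ± 457 CPM in alpha cells (log2 1.36 ± 0.20), far under the 35080 ± 4202 CPM of delta cells. A single chow 3 cell gave 98.6% of the Npy UMIs and 1 cell gave 68.8% of the Nnat UMIs of PP cells.

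A list of 20 other genes that studies have reported in PP cells had 8 members tested. Against alpha cells 4 were higher (Cd9, Fxyd3, Tm4sf4 and Chgb), 1 was lower (Ttr) and 3 did not pass. Against sharing cells 3 were higher and 1 lower, and against delta cells 5 were higher and 3 lower. Of all genes, 7.4% were higher and 9.45% lower against alpha cells. These shares were 0.619% and 1.48% against sharing cells, and 7.5% and 10.5% against delta cells. Ghrl, the ghrelin gene, was seen in 0 of 360 PP cells, which allows a share of cells with a Ghrl UMI of up to 1.02% and sets no limit on expression below that depth.

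Genes of the secretory granule did not move as 1 group. Against alpha cells 4 of 27 were higher and 11 lower in PP cells (median log2 -0.18). Of all genes, 7.4% were higher and 9.45% lower against alpha cells. These shares were 0.619% and 1.48% against sharing cells, and 7.5% and 10.5% against delta cells. Scg2, a granin, had 5023 and 3578 CPM in PP cells of HC 1 and HC 2 and 3140, 4013 and 3419 CPM in PP cells of chow 1, chow 2 and chow 3, against 1071 ± 50.3 CPM in alpha cells. Scg2 and Chgb were higher in PP cells (log2 1.53 ± 0.14 and 0.98 ± 0.14), and Chga, Pcsk1n and Gnas were lower (-1.27 ± 0.15, -1.42 ± 0.16 and -1.56 ± 0.16). Chga, chromogranin A, averaged 4972 ± 1334 CPM in PP cells and 9222 ± 2043 CPM in alpha cells. Gnas, which encodes the stimulatory G protein, averaged 3827 ± 80.1 CPM in PP cells and 9168 ± 598 CPM in alpha cells. Of the prohormone convertases, Pcsk1 was higher (log2 2.63 ± 0.47, from 19 UMIs) and Pcsk2 lower (-0.51 ± 0.14) in PP cells. The unscaled means of Pcsk2 lay close, at 4448 ± 713 CPM in PP cells and 4877 CPM in alpha cells, and the part of the scaling in its ratio was not tested. Against sharing cells Chgb, Scg2 and Pcsk1 were higher and Chga, Pcsk1n, Slc30a8 and Gnas lower, and against delta cells 10 were higher and 5 lower.

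Of 38 islet receptors 15 had enough UMIs to be tested, and 3 were lower and none higher in PP cells than in alpha cells, where 9.45% of all genes were lower and 7.4% higher. Sstr2, a somatostatin receptor, had 1 UMI in PP cells and 331 in alpha cells. Gpr119, a lipid receptor, averaged 14.6 ± 14.6 CPM in PP cells and 71.7 ± 15.7 CPM in alpha cells (log2 -1.65 ± 0.30). Avpr1b, a vasopressin receptor, averaged 5.44 ± 6.04 CPM in PP cells and 37.9 ± 7.00 CPM in alpha cells (log2 -2.09 ± 0.42). Against delta cells 5 receptors were higher and 4 lower, where 7.5% of all genes were higher and 10.5% lower. The 5 were Ffar1 (4.17 ± 0.60), Gpr119 (3.35 ± 0.56), Vipr1 (3.74 ± 0.48), Gabbr2 (2.60 ± 0.67) and Avpr1b, which had 8 UMIs in PP cells and 0 in delta cells. Ffar1 is a fatty acid receptor and Vipr1 a receptor of vasoactive intestinal peptide. Against sharing cells Sstr2 and Gpr119 were lower, where 1.48% of all genes were lower.

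Markers of other cells of the pancreas were measured in the same sums. Acinar markers made up 0.0294 and 0.0306% of the UMIs outside the limit genes in PP cells of HC 1 and HC 2 and 0.0505, 0.0147 and 0.0129% in PP cells of chow 1, chow 2 and chow 3. Of 16 acinar markers tested, 6 were lower and none higher in PP cells than in alpha cells. Of all genes, 9.45% were lower and 7.4% higher in that comparison. Ductal markers made up 0.211 and 0.197% in HC 1 and HC 2 and 0.118, 0.233 and 0.170% in chow 1, chow 2 and chow 3, against 0.130 to 0.155% in alpha cells and 0.237 to 0.278% in delta cells. Of 8 ductal markers tested, Krt18, Krt7, Epcam, Cldn3 and Cldn7 were higher in PP cells than in alpha cells (median 0.67) and none lower, and their part in other results was not tested. Endothelial markers made up at most 0.00657% and Schwann cell markers at most 0.00287% in any mouse, and 0 of 3 endothelial, 0 of 4 macrophage and 0 of 2 Schwann cell markers tested passed against alpha cells. Of 5 stromal markers, Col3a1 and Dcn were higher than in alpha cells, with 68.0% and 64.9% of their UMIs from 1 chow 3 cell, and neither passed without chow 3 or without the FUN libraries.

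The diet comparison asked what differed in PP cells of the 2 HC mice against the 3 chow mice. None of 3195 genes tested passed an adjusted p under 0.05 with edgeR (0%). Before adjustment 91 genes had a p under 0.05, and DESeq2 gave 0 calls (2 before adjustment). In 383 genes (12%) the 2 HC values exceeded the 3 chow values and in 247 (7.73%) they fell short of all 3, with a median log2 ratio of 0.02. Pyy was lower in PP cells of both HC mice than of all chow mice, with a log2 ratio of -0.82 ± 0.44 (SE, adjusted p = 0.998). Without the FUN libraries, with 1 HC mouse assumed to vary like the others, it was -1.07 and past the threshold (adjusted p = 1.61e-105). Tspan8 (0.20 ± 0.34), Folr1 (-0.39 ± 0.35) and Calb1 (-0.01 ± 0.30) did not pass the threshold, which does not show that they were alike.

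Phyhipl, named after a protein that binds phytanoyl-CoA hydroxylase, had the smallest p. It had 146 and 102 CPM in PP cells of HC 1 and HC 2, from 2 and 16 UMIs, and 0, 24.6 and 11.7 CPM in PP cells of chow 1, chow 2 and chow 3, from 0, 8 and 4 UMIs. The diets did not overlap, with a log2 ratio of 2.50 ± 0.53 and an adjusted p of 0.0894. It passed with stricter cells (0.00811), stricter hormone limits (0.00859), library prefix as a term (0.00556) or the SKY libraries alone (0.0221). Under the other alternatives it did not, with a highest adjusted p of 0.999705 (without chow 1), 0.99949 with DESeq2 and a ratio of 1.35 with the diet of the HC 2 title. Junb, an immediate-early factor, had 146 and 255 CPM in PP cells of HC 1 and HC 2 and 561, 416 and 470 CPM in PP cells of chow 1, chow 2 and chow 3 (log2 -0.90 ± 0.32, adjusted p = 0.998). Other genes were ranked by p among those with a mean of at least 50 CPM. The rest of smallest p, none past the threshold, were Itfg2 (1.51 ± 0.49), Pcna (1.46 ± 0.47), Ctrb1 (1.64 ± 0.54), Taf11 (-2.72 ± 0.76), Basp1 (-1.98 ± 0.57) and Gripap1 (-1.74 ± 0.67). Basp1 passed without the FUN libraries (-2.43, adjusted p = 0.00299).

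Whether the diet effect differed between PP and alpha cells was tested as an interaction over 9833 genes. It called 3 (0.0305%), 1 higher (0.0102%) and 2 lower (0.0203%). Before adjustment 429 had a p under 0.05, and DESeq2 gave 0 calls (32 before adjustment). Mgp, the matrix Gla protein, had an interaction of 3.19 ± 0.43, with 73.5% of its PP cell UMIs from 1 HC 2 cell. Cd74 and H2-Ab1, genes of antigen presentation by leukocytes, had interactions of -4.62 ± 0.94 and -10.53 ± 2.16, with 82.8% and 88.9% of their PP cell UMIs from 1 chow 3 cell. H2-Ab1 had 0 UMIs in PP cells of both HC mice, so the size of its fitted value depends on the prior count. The part of those single cells in the 3 calls was not tested. Pyy (-0.66), Tspan8 (0.48), Folr1 (-0.21), Calb1 (-0.20) and Phyhipl (2.40 ± 0.67, adjusted p = 0.465) were not past the threshold. Without the FUN libraries Pyy (-0.58, adjusted p = 7.98e-22) and Phyhipl (2.37, adjusted p = 0.0442) were, with 1 HC mouse assumed to vary like the others.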

How the data were processed

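Single-cell 3′ RNA-seq of islets from 2 HC and 3 chow mice was analysed from the deposited tables of UMI counts, 1 per mouse, with 32285 genes (32158 with a symbol). The counts were made with Cell Ranger 4.0.0, and the build is mm10, both per the submitters' processing notes; the annotation release and cell calling are not given in the sources used here. The 26474 barcodes held 157588409 UMIs. Barcodes with at least 1000 UMIs, at least 500 genes and at most 15% mitochondrial UMIs were kept. Doublets were not called.

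Counts were summed per mouse and class without the 5 limit genes and tested with edgeR 4.0.16 (quasi-likelihood F test, TMM, filterByExpr, Benjamini-Hochberg over all genes tested) in R 4.3.3, with the mouse as a block because all classes come from the same 5 mice. SE is the log2 ratio divided by the square root of F. Diet within PP cells was fitted on 5 sums. Cell shares were compared by an exact permutation test over 10 splits. DESeq2 1.42.0, other scalings, stricter limits, an age or prefix term and leaving out each mouse were alternatives. Scripts were tested on simulated data with known 2-fold and 4-fold changes. Against alpha cells 61 of 97 and 93 of 99 were recovered, in that order. For diet in PP cells 11 of 83 and 65 of 81 were recovered, and for the interaction 0 of 98 and 7 of 98. Few calls for diet or the interaction therefore do not show that such changes were absent. Python 3.11.15 with pandas 2.3.3 and scipy 1.17.1 was used.

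The cells, gene lists, tests and rule for named genes were chosen with earlier results of these data known. Against alpha cells the rule names 12 genes per direction, and against sharing and delta cells 6. These have an adjusted p under 0.05, at least 50 mean CPM in the higher class and the same sign in 5 mice. Among such genes it takes the largest ratios. For diet and the interaction it names genes past the threshold. Where fewer than 4 pass in a direction, it adds the 4 of smallest p with a mean of at least 50 CPM. After the values were seen, the CPM limit and the sign rule were moved from TMM-scaled to unscaled CPM, because the TMM factors of PP sums were 1.51 in HC 1 and 0.867 in HC 2, against 1.63, 0.722 and 0.717 in chow 1, chow 2 and chow 3. That changed some of the names. Some genes are not reported here. Ratios and tests keep TMM, so a ratio can differ from that of the CPM means.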

Additional observations from a re-analysis of the deposited data

Results flagged for a closer look

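In 5 of the 51 gene and comparison pairs tested, 1 of 5 mice stood apart from the other 4 by Dixon's criterion (gap over range above 0.71), which chance flags in about 1 of 20 groups. In 4 of the 5 the mouse was HC 1 or chow 1, whose PP cells number 5 and 4. The values are log2 ratios of 1 mouse. Over alpha cells, Smim1 was 2.85 in chow 1 (1.87 to 2.13 in the others), Gpx2 was 3.91 in chow 1 (1.81 to 2.21) and Dpp10 was -2.85 in chow 2 (-5.35 to -5.17). PP cells held only 3 Dpp10 UMIs in all, so the Dpp10 values of single mice depend largely on the prior count and are not measured ratios. Over sharing cells, Mpp2 was 5.70 in chow 1 (1.29 to 2.14) and Snhg18 was 6.07 in HC 1 (0.94 to 2.26). Sharing cells had 0 UMIs of the gene in both of these, so 5.70 and 6.07 depend on the prior count and are not measured ratios.

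The diet effect differed between PP and alpha cells in 3 genes by the interaction term itself: Mgp (3.19), Cd74 (-4.62) and H2-Ab1 (-10.53). Single cells gave most of their PP cell UMIs, as described above, and the part of those cells in the result was not tested.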

How the results depend on the processing

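Class comparisons depended most on the mice with many PP cells. Leaving out each mouse in turn gave 818 to 1453 calls against alpha cells (929 without chow 2, 818 without chow 3), 1020 to 1525 against delta cells and 61 to 217 against sharing cells (94 without HC 2, 105 without chow 2, 61 without chow 3), where fewer samples remain. Of the calls over all mice, 546 against alpha cells, 688 against delta cells and 41 against sharing cells held without each mouse. With no replicate block, calls against sharing cells numbered 105 and the Pyy ratio over them had an adjusted p of 0.197, while calls numbered 1219 against alpha cells and 1333 against delta cells. Pairing here means that the classes come from the same mouse, and the labels do not pair mice across diets. Against sharing cells, DESeq2's size factors gave 314 calls, and library sizes without Pyy, an alternative chosen after seeing the data like the fit without FUN libraries, gave 329 (141 higher, 188 lower). With those factors the median of all genes over alpha cells was -0.13. Without the FUN libraries 1394 genes differed from alpha cells, 238 from sharing cells and 1541 from delta cells. The cause of these shifts was not tested.

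For diet in PP cells, calls were 1 with no filter on low counts, 2 with stricter cells, 1 with stricter limits, 2 with library prefix as a term, 9 with age as a term, 9 without FUN libraries and 0 to 1 leaving out each mouse. For the interaction they were 5 with library sizes without Pyy, 0 with DESeq2, 1 with stricter cells, 18 without FUN libraries and 0 to 5 leaving out each mouse. The share difference ran from -2.13 to -0.496 points leaving out each mouse and was -4.18 points of PP, sharing, alpha and delta cells, and the difference among PP and sharing cells ran from -36.9 to 4.46. With the diet of the HC 2 title they were -1.75 and -37.98.

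Some directions turned. The difference among PP and sharing cells was 4.46 points without HC 1, against -16.2 over all mice. The diet ratio of Calb1 was 0.0157 with no filter, 0.27 with DESeq2, 0.30 with the title's diet and -0.16 to 0.35 leaving out each mouse (0.35 without HC 2, 0.34 without chow 3), and that of Tspan8 was -0.0477 to 0.21 (lowest without HC 2) and -0.18 with the title's diet. Leaving out each mouse, the interaction of Calb1 ran from -0.33 to 0.47 (above 0 without HC 2, chow 2 or chow 3; 0.11 with DESeq2), that of Tspan8 from -0.12 to 0.95 and that of Mgp from -8.003 to 3.37 (lowest without HC 2 in both), and that of Folr1 was 0.00011 without FUN libraries. Values for single named genes mostly kept their direction and side of the threshold. They did so in 336 of 336 against alpha cells, 182 of 182 against delta cells and 185 of 194 against sharing cells. Apart from the PP cell markers, these genes were named for passing the threshold with the same sign in every mouse and the largest ratios. Their retention therefore largely follows from that choice and does not describe all calls. Calls holding without each mouse were 546 of 1416 against alpha, 688 of 1515 against delta and 41 of 176 against sharing cells. Depth limits the diet comparison, in which 9 PP cells stand for 1 HC and 1 chow mouse.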

Other observations

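Other gene groups in PP cells were counted in the same fits, in which 7.4% of all genes were higher and 9.45% lower than in alpha cells and 2.1% differed from sharing cells. Of 27 genes of the unfolded protein response, 7 were higher and 2 lower in PP cells than in alpha cells (median log2 0.23), and none passed against sharing cells. Dnajc3, a chaperone of the endoplasmic reticulum, averaged 426 ± 154 CPM in PP cells and 275 ± 29.2 CPM in alpha cells (log2 0.73 ± 0.12). Derl1 (0.73 ± 0.20) and Sdf2l1 (0.64 ± 0.16) were higher and Hyou1 (-0.55 ± 0.20) lower. With library sizes that left out Pyy and no scaling factor, 14 were higher and 0 lower.

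Of 29 immediate-early and heat-shock genes, 3 were higher (Klf2, Hspa1a and Hspb1) and 10 lower in PP cells than in alpha cells (median -0.18). Hspb1, a small heat-shock protein, averaged 114 ± 72.4 CPM in PP cells and 25.01 ± 11.5 CPM in alpha cells (log2 2.22), and Fos averaged 804 ± 256 CPM in PP cells and 1116 ± 192 CPM in alpha cells. Of 18 genes of excitation and glucose sensing, 1 was higher (Kcnk16, a potassium channel, 0.54 ± 0.13) and 5 lower. Of 18 amino acid response genes 5 were lower and none higher, and of 13 mitochondrially encoded transcripts 6 were lower and none higher (median -0.36). Of these 6, mt-Co3 averaged 9679 ± 3410 CPM in PP cells and 9956 CPM in alpha cells. For mt-Atp6 the means were 8950 and 8794 CPM, and for mt-Co1 7482 and 7198 CPM, in the same order. Unscaled levels of these transcripts were thus close, and the part of the scaling in the counts of this paragraph was not tested. Of 12 interferon-stimulated and MHC class I genes 2 were higher and 2 lower, and of 5 cell cycle genes 1 was lower.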
